A study of Mus musculus with 3 samples.

Results

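Mitotic Sox9-positive tip cells are here the Sox9-positive epithelial cells of the embryonic lung that held the most mitotic transcripts. The name follows the Sox9-positive cells at the ends of the branching lung tubes, but position was not measured. Mitotic tip cells were 414 of the 12967 cell barcodes in 3 droplet single-cell RNA libraries of mouse embryonic lung at E14.5. The lungs came from embryos of 2 C57/B6 females and were pooled, dissociated and stained for the surface proteins Epcam, found on epithelium, and Icam1, an adhesion molecule. The 3 groups of cells were sorted Epcam+ Icam+ (2 libraries, replicates 1 and 2) and Epcam+ (1 library), with no genotype or treatment beyond the C57/B6 background named for any of them. Whether each library had its own pool of lungs is not in the labels, so p-values cover only the variation among 3 libraries, part of which may be technical.

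The members were chosen from their own transcript counts. A barcode needed at least 5000 unique molecular identifiers (UMIs, 1 per captured transcript), at most 10% mitochondrial UMIs, at least 3 Epcam UMIs, fewer than 10 UMIs of the macrophage genes C1qa, C1qb and C1qc together, and 0 UMIs of Sox2, the transcription factor of the airway. Barcodes above their library's 75th percentile of an alveolar type 1 share (Hopx, Clic5, Ager and Akap5) or of an alveolar type 2 share (Sftpa1, Sftpb and Cxcl15) were dropped. The 1657 barcodes left with at least 1 UMI of Sox9 are called tip cells here. Mitotic tip cells were those above their library's 75th percentile of the share of Ccnb1, Cdc20, Ube2c and Plk1 in all UMIs, which gave 115 in Epcam+ Icam+ replicate 1, 107 in Epcam+ Icam+ replicate 2 and 192 in Epcam+. The other 1243 tip cells were their comparison.

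At E14.5 the lung epithelium grows by branching, and Sox9-positive progenitors at the tips divide while their descendants leave to form airway and, later, alveoli. A cell enters mitosis when cyclin B activates the kinase Cdk1. It leaves mitosis when the anaphase-promoting complex or cyclosome (APC/C), a ubiquitin ligase, marks cyclin B and securin for destruction once every chromosome is held by the spindle. Ccnb1 is cyclin B1, Cdc20 the APC/C activator of that moment, Ube2c the ubiquitin-conjugating enzyme that works with the APC/C, and Plk1 a kinase of mitotic entry and spindle assembly.

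Genes of this group share promoter elements, the cell cycle homology region (CHR, TTTGAA or TTCGAA) and the CCAAT box (CCAAT), through which the DREAM and MuvB complexes and the factor NF-Y act. The 150 bases before the RefSeq start of each ranking gene are shown because they carry the elements of the genes that chose the cells. Those of Kpna2 and Mcm6 are shown as a gene higher and a gene lower in mitotic tip cells whose windows hold marked elements. They do not stand for the other genes of either direction. All are 5′ to 3′ on the gene's strand (build GRCm38.p6, the same as mm10), and capitals mark a CHR, a CCAAT box or an E2F site (TTTGGCGC, TTTCCCGC, TTTGCCGC or TTTCGCGC) on either strand. The windows are chr13:100786487-100786636 (minus strand) for Ccnb1, chr4:118437344-118437493 (minus) for Cdc20, chr2:164769779-164769928 (plus) for Ube2c, chr7:122159285-122159434 (plus) for Plk1, chr11:106999526-106999675 (minus) for Kpna2 and chr1:128359706-128359855 (minus) for Mcm6.
Ccnb1: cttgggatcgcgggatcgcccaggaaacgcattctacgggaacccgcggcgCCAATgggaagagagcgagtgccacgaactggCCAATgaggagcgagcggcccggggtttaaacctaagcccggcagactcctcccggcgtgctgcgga
Cdc20: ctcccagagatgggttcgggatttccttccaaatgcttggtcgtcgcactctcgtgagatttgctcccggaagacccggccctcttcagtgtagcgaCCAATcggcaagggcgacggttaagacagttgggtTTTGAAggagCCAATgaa
Ube2c: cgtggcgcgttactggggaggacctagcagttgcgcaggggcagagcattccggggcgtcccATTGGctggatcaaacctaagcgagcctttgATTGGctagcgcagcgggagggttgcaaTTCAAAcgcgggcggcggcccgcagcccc
Plk1: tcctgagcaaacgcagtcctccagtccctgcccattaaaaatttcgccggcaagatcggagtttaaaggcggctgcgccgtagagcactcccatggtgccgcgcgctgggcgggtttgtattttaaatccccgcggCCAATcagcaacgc
Kpna2: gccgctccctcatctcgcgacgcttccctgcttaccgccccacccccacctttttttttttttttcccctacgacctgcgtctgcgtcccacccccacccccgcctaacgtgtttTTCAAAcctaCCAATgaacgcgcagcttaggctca
Mcm6: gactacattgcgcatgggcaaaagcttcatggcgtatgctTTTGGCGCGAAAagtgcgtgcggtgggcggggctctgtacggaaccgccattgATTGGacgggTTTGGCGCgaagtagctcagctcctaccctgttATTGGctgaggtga
Each of the 4 ranking genes had a CCAAT box in its window, and Cdc20 and Ube2c also a CHR. The CHR of Plk1 lay after the start, inside the longer window of 250 bases before and 50 after it that was searched for all genes. In the GENCODE annotation some of these genes begin earlier (Ccnb1 spans chr13:100778650-100786570), so the end of a window can lie inside the gene.

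The ranking genes described the choice and were not tested. The unit CPM gives the UMIs of a gene, summed over the cells of one class and library, per 1000000 UMIs of that sum. Values follow the order Epcam+ Icam+ replicate 1, Epcam+ Icam+ replicate 2 and Epcam+. Ccnb1 had 182.7, 144.5 and 260.0 CPM in mitotic tip cells, against 21.8, 29.5 and 59.2 CPM in other tip cells. Ube2c had 1268, 1195 and 1103 CPM in mitotic tip cells, against 99.8, 130.1 and 183.0 CPM in other tip cells. The classes did not overlap for either gene, as for 7.09% of the 11931 genes tested, and the other tip cells were highest in the Epcam+ library for both. Cdc20 had 207.0, 193.5 and 308.7 CPM in mitotic tip cells, against 31.0, 38.2 and 76.8 CPM in other tip cells. Plk1 had 67.2, 66.5 and 135.1 CPM in mitotic tip cells, against 11.02, 12.2 and 26.6 CPM in other tip cells. Mitotic tip cells of the Epcam+ library held the most of Ccnb1, Cdc20 and Plk1 and the least of Ube2c.

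The threshold differed by library, at 641.6 CPM of the 4 genes together in Epcam+ Icam+ replicate 1, 729.4 CPM in replicate 2 and 950.2 CPM in Epcam+. The lowest members lay just above it, at 648.5, 750.9 and 951.9 CPM, and the highest other tip cells at or just below it, at 641.6, 729.4 and 948.6 CPM. So the edge of the class is a point on a continuous range. With 1 fixed level of 500 CPM, 28.6% (exact 95% interval 24.5 to 33.0), 34.7% (30.2 to 39.4) and 42.1% (38.6 to 45.7) of tip cells lay above it in the 3 libraries. At 2000 CPM the shares were 7.81%, 7.69% and 8.47%, whose exact intervals overlapped. These intervals cover counting error only, and the median tip cell was deeper in the Epcam+ library.

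**Figure D1:**
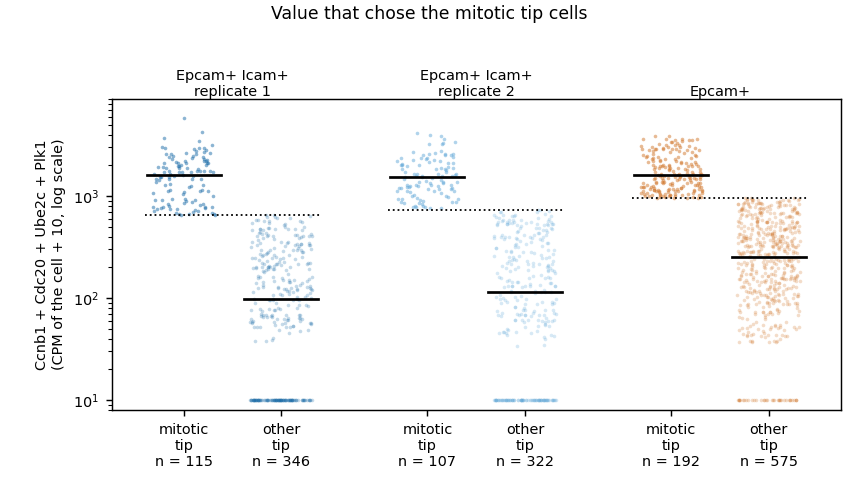
Share of Ccnb1, Cdc20, Ube2c and Plk1 in each tip cell (CPM + 10, log axis) in mitotic and other tip cells of the 3 libraries, with the median as a line and the library's threshold dotted. Median shares were 1600, 1521 and 1598 CPM in mitotic tip cells, against 87.1, 105.0 and 243.9 CPM in other tip cells.

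Among the members the 4 ranking transcripts were only loosely tied. With every cell thinned to 5000 UMIs, Spearman's rho between pairs of them lay between 0.01 (Cdc20 and Plk1, Epcam+) and 0.33 (Ccnb1 and Cdc20, Epcam+ Icam+ replicate 2) over 107 to 192 cells of 1 library. Ranking the tip cells instead by 6 other mitotic genes (Aurka, Tpx2, Cenpe, Cenpf, Hmmr and Ccna2) kept 85.2%, 73.8% and 78.1% of the members in the 3 libraries.

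Marker transcripts were set beside the label. Sox9, the tip transcription factor, was required of both classes, and at 5000 UMIs per cell 30.4%, 29.9% and 36.5% of mitotic tip cells had a Sox9 UMI, against 37.0%, 36.6% and 33.9% of other tip cells. In macrophages of the same libraries, which should lack Sox9, the thinned shares were 1.00%, 1.57% and 2.78%. Since the rule asked every tip cell for a Sox9 UMI, the tip shares had to lie above these, and Sox9 is no check of the label. Nkx2-1, the lung epithelial transcription factor, was seen in 64.3%, 65.4% and 68.2% of thinned mitotic tip cells, against 4.01%, 4.71% and 11.1% of macrophages. Icam1, the sort's second target, was seen in 58.3%, 57.0% and 46.9% of thinned mitotic tip cells and in 26.1%, 30.6% and 50% of macrophages. Only 36 macrophages passed in the Epcam+ library, and there the Icam1 share of mitotic tip cells was not above theirs. Of the tip transcripts, Id2 was seen in 52.2%, 51.4% and 84.4% of thinned mitotic tip cells, against 68.2%, 63.4% and 38.9% of macrophages. Etv4 was seen in 0%, 0.93% and 9.90% of thinned mitotic tip cells, and Bmp4 in 7.83%, 7.48% and 26.0%. Etv5 was seen in 27.8%, 34.6% and 67.7%, and Sftpc in 87.0%, 85.0% and 94.8%. For Bmp4, Etv5 and Sftpc the macrophage shares were lower in each library. Id2 was thus no check of the label in Epcam+ Icam+.

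Mitotic tip cells were deeper than other tip cells, at medians of 27417, 30362 and 34161.5 UMIs, against 21553, 21948.5 and 29455 UMIs in other tip cells. At 5000 UMIs per cell they still showed 1936, 1926 and 1872.5 genes at the median, against 1875, 1855.5 and 1842 genes in other tip cells. Library totals were 67843828 to 84460347 UMIs over all barcodes. At most 3 barcodes were shared between any pair of libraries. Cells with 10 or more UMIs of macrophage, mast cell, mesenchyme, endothelium or erythroid markers numbered 1, 0 and 6 among mitotic tip cells and 6, 2 and 12 among other tip cells. A single barcode could carry most of such a signal. The mast cell and basophil markers summed to 2.44, 1.40 and 262.2 CPM in mitotic tip cells, and 1 cell of the Epcam+ library held 1498 of the 1826 UMIs behind the last value.

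Mitotic tip cells were compared with other tip cells in each library, with UMIs summed per class and library. Of 11931 genes tested, 530 were higher in mitotic tip cells (4.44%) and 414 lower (3.47%) at an adjusted p under 0.05 by edgeR's quasi-likelihood test with the library as a block. With a log2 difference of at least 1 in size, 126 were higher (1.06%) and 64 lower (0.536%). The members were chosen on mitotic transcripts of the same cells, so counts and differences of cell cycle genes are given as a description of the class and support nothing. The counts fell to 286 higher and 196 lower without Epcam+ Icam+ replicate 2. They were 307 higher and 116 lower against other tip cells without the S-phase-high ones.

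Mitotic genes moved broadly with the ranking genes. The 8 lists of mitosis genes together held 131 genes, of which 90 were higher in mitotic tip cells, 2 lower and 39 not called, with a median log2 difference of 0.90. The median over all genes tested was -0.00. The 90 genes were 90 of the 530 called higher, and 62 of the 126 with a log2 difference of at least 1, while 425 of the 530 were in no list at all.

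Of the 18 kinases, phosphatases and transcription factors of mitotic entry 14 were higher and 2 lower (median log2 difference 1.20). Cdk1 itself, the mitotic kinase, had 426.2, 425.4 and 408.8 CPM in mitotic tip cells, against 127.7, 136.6 and 192.7 CPM in other tip cells, a log2 difference of 1.44 ± 0.08 (SE, 3 libraries). Aurka, the spindle pole kinase that activates Plk1, had 39.6, 38.3 and 121.4 CPM in mitotic tip cells, against 4.48, 6.39 and 25.8 CPM in other tip cells (2.45 ± 0.12). Cdc25b, the phosphatase that starts Cdk1, had 33.2, 35.2 and 17.7 CPM in mitotic tip cells, against 3.46, 4.92 and 4.26 CPM in other tip cells (2.60 ± 0.18). None of the 3 genes overlapped between the classes, as for 7.09% of all genes tested. The 2 lower genes were Mybl2 (-0.72 ± 0.14), the B-MYB factor that acts from late G1 on, and Pkmyt1 (-0.47 ± 0.12), a kinase that holds Cdk1 inactive. Foxm1, the factor that drives mitotic genes with B-MYB, was higher at 29.2, 32.7 and 15.7 CPM in mitotic tip cells, against 13.2, 14.503 and 8.83 CPM in other tip cells.

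Chromosome and kinetochore genes came next. Of 12 condensation genes 9 were higher and 0 lower (median 0.81), and 9 had an unadjusted p under 0.05. The condensin I subunits Ncapg (0.96), Ncapd2 (0.74) and Ncaph (0.71) were among them, whereas the condensin II subunits Ncapg2 (-0.21), Ncapd3 (0.02) and Ncaph2 (0.19) were not called. Top2a, the topoisomerase that untangles chromosomes, had 577.0, 527.9 and 311.7 CPM in mitotic tip cells, against 221.5, 221.0 and 162.6 CPM in other tip cells. Of 22 kinetochore and inner centromere genes 19 were higher and 0 lower (median 1.08). Cenpf, a large outer kinetochore protein, had 528.8, 494.1 and 270.2 CPM in mitotic tip cells, against 81.9, 96.2 and 76.9 CPM in other tip cells (2.25 ± 0.10). Dsn1 (0.09), Mis12 (0.10) and Cenpk (0.01) were the 3 not called.

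Of 23 genes of spindle motors and microtubule proteins 21 were higher and 0 lower (median 1.5). Nusap1, which bundles spindle microtubules, had 260.1, 228.5 and 181.1 CPM in mitotic tip cells, against 46.5, 53.9 and 39.7 CPM in other tip cells (2.23 ± 0.07). Tuba1c, an alpha-tubulin, had 198.4, 174.7 and 353.5 CPM in mitotic tip cells, against 49.3, 43.4 and 116.3 CPM in other tip cells (1.81 ± 0.07). The classes did not overlap for either gene, as for 7.09% of all genes tested. Tubg1, the gamma-tubulin of the centrosome (-0.08), and Stmn1, which destabilises microtubules (0.19), were not called. Of 13 cytokinesis genes 10 were higher (median 1.17), led by Prc1 (1.68 ± 0.06) of the central spindle. Rhoa (0.01), Chmp4b (-0.09) and Pdcd6ip (-0.13) were not called.

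**Figure D2:**
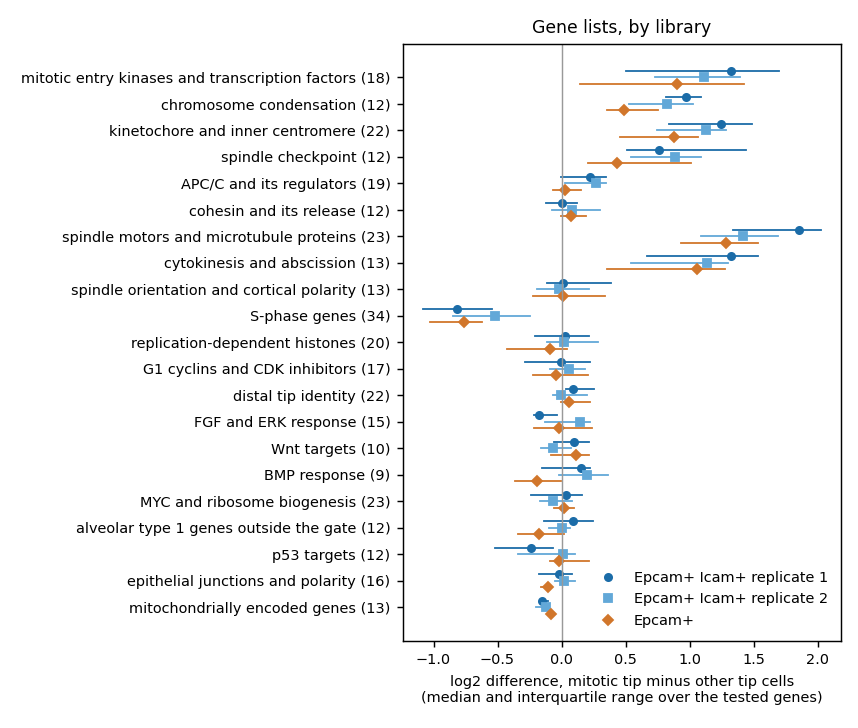
Median and interquartile range over genes of the log2 difference, mitotic minus other tip cells, for each gene list in each of the 3 libraries. Spindle, entry, cytokinesis and kinetochore lists lie above 0 in every library, the S-phase list lies below it, and the distal tip list lies near 0.

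The machinery of mitotic exit was not uniform. Of 19 genes of the APC/C and its regulators 5 were higher and 0 lower (median 0.13). They were Fzr1 (1.25 ± 0.09), the activator that replaces Cdc20 after anaphase, Espl1 (1.24 ± 0.16), the separase that cuts cohesin, Ube2s (0.91 ± 0.07), which extends ubiquitin chains, and the small subunits Anapc15 (0.32) and Anapc11 (0.22). Fzr1 had 60.8, 51.3 and 85.4 CPM in mitotic tip cells, against 21.4, 20.0 and 40.3 CPM in other tip cells. Most core subunits differed little, such as Anapc5 at 150.2, 161.4 and 222.5 CPM in mitotic tip cells, against 145.0, 155.7 and 227.4 CPM in other tip cells. Pttg1, the securin that the APC/C destroys, had 20.9, 22.3 and 30.9 CPM in mitotic tip cells, against 21.8, 24.2 and 31.7 CPM in other tip cells (-0.08 ± 0.10, not called). Of 12 spindle checkpoint genes, whose products hold the APC/C back, 9 were higher (median 0.66), led by Spdl1 (1.57) and Bub3 (1.24). Of 12 genes of cohesin and its release 3 were higher (median 0.07), namely Rad21 (0.45), Cdca5 (0.41) and Smc1a (0.21).

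**Figure D3:**
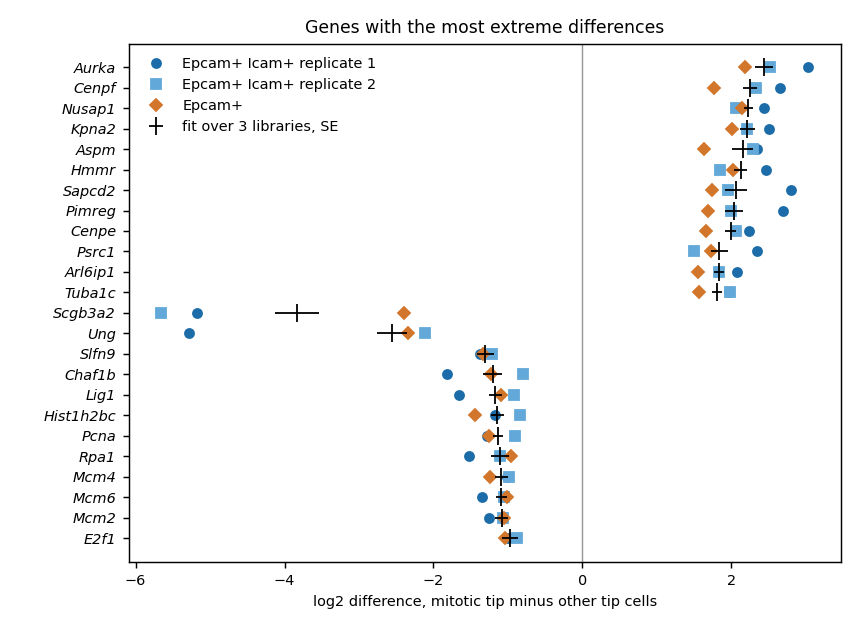
Log2 difference, mitotic minus other tip cells, in each library and in the fit (± SE) for the 12 genes highest and the 12 lowest by a rule on fitted size, detection and direction. The fitted values run from 2.45 (Aurka) to 1.81 (Tuba1c) among the higher genes, and from -3.83 (Scgb3a2) to -0.98 (E2f1) among the lower.

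The promoter elements can be set beside these lists. In the 300-base window a CHR was found in 19.2% of the 32851 mouse promoters of the RefSeq table, a CCAAT box in 37.4% and an E2F site in 2.26%. For the 8 mitosis lists 124 promoters of 108 of the 131 genes were in the table, and 69 of them (55.65%) held a CHR, 74 (59.7%) a CCAAT box and 11 (8.87%) an E2F site. Among the mitosis genes higher in mitotic tip cells 56 of 84 promoters (66.7%) held a CHR, and among those not called 13 of 39 (33.3%). The 29 S-phase promoters, of 26 of 34 genes, differed from these in their letters: 4 (13.8%) held a CHR and 11 (37.9%) an E2F site, as the Mcm6 window shows. These are counts of letters, with no test and no statement on binding.

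S-phase genes ran the other way. Of 34 genes of DNA replication 0 were higher and 30 lower in mitotic tip cells (median log2 difference -0.70), and 33 had an unadjusted p under 0.05; DESeq2 called 27 lower. Pcna, the sliding clamp of DNA polymerase, had 92.1, 112.4 and 89.5 CPM in mitotic tip cells, against 218.8, 207.7 and 208.1 CPM in other tip cells (-1.13 ± 0.07). Ung, a DNA repair glycosylase of replicating cells, had 0.614, 6.20 and 17.4 CPM in mitotic tip cells, against 33.4, 27.3 and 87.2 CPM in other tip cells. Mcm6, a helicase subunit, had 45.4, 49.0 and 92.8 CPM in mitotic tip cells, against 113.0, 100.6 and 182.7 CPM in other tip cells. The classes of Pcna, Ung and Mcm6 did not overlap, as for 7.09% of all genes tested. Rrm1 (-0.13), a ribonucleotide reductase subunit, and Gmnn (-0.14), the licensing inhibitor geminin, were among the 4 not called. When other tip cells above their library's 75th percentile of 8 S-phase genes were left out, 5 of the 34 genes were lower and the median was -0.18, and Pcna was no longer called (-0.48). Those 8 genes are in the list, so a smaller count followed from the choice of cells, and it is given as a description.

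Histone genes, whose transcripts are made in S phase and destroyed after it, showed no one direction over all members. Of 20 replication-dependent histone genes 4 were higher (20%) and 2 lower (10%), with a median of -0.02. Over all genes tested the shares were 4.44% and 3.47%. Summed over the list they came to 4702, 5617 and 2103 CPM in mitotic tip cells, against 4737, 5377 and 2285 CPM in other tip cells. S-phase-high tip cells held 10140, 10263 and 3093 CPM, and the tip cells that were neither mitotic nor S-phase-high 2494, 3287 and 2052.5 CPM. Mitotic tip cells thus lay between those in the 3 libraries, in Epcam+ only just above the last class. Against the last class alone 12 of 20 genes were higher and 1 lower. In Epcam+ the sum was mostly 1 gene, Hist1h2ap, at 1818 CPM in mitotic tip cells, whereas Hist1h1b had 35.9 CPM there. The higher genes in the main comparison were Hist1h3c (0.52), Hist2h2bb (0.49), Hist1h4c (0.45) and Hist1h4d (0.42).

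The histone level varied with the ranking inside the class. Within each library the members were split by the ranking value into 3 groups of 35 to 64 cells. Histone transcripts summed to 7550, 5021 and 2051 CPM in the lowest, middle and highest group of Epcam+ Icam+ replicate 1. In replicate 2 they summed to 7485, 6308 and 2311 CPM, and in Epcam+ to 2587, 2464 and 1160 CPM. The highest group was the lowest in histone RNA in all 3 libraries, though in Epcam+ the sum over all members was mostly Hist1h2ap. S-phase genes were also lowest in the highest group, at 2113, 1554 and 1293 CPM in replicate 1, 2343, 1686 and 1392 CPM in replicate 2 and 2595, 2354 and 2144 CPM in Epcam+. Spindle genes were at 7113, 8405 and 9604 CPM in replicate 1, 7403, 8487 and 9418 CPM in replicate 2 and 8909, 9773 and 11206 CPM in Epcam+, the opposite order. Condensation genes did not follow 1 order in the 3 libraries. These groups are defined by the ranking and are not tested. With members redrawn above the 90th percentile instead of the 75th, 0 histone genes were higher and 18 of 20 lower (median -1.11). That is a narrower class than the one described elsewhere. Its comparison changed too, since members at or below the 90th percentile joined the other tip cells (415, 386 and 690). The count thus describes both groups.

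**Figure D4:**
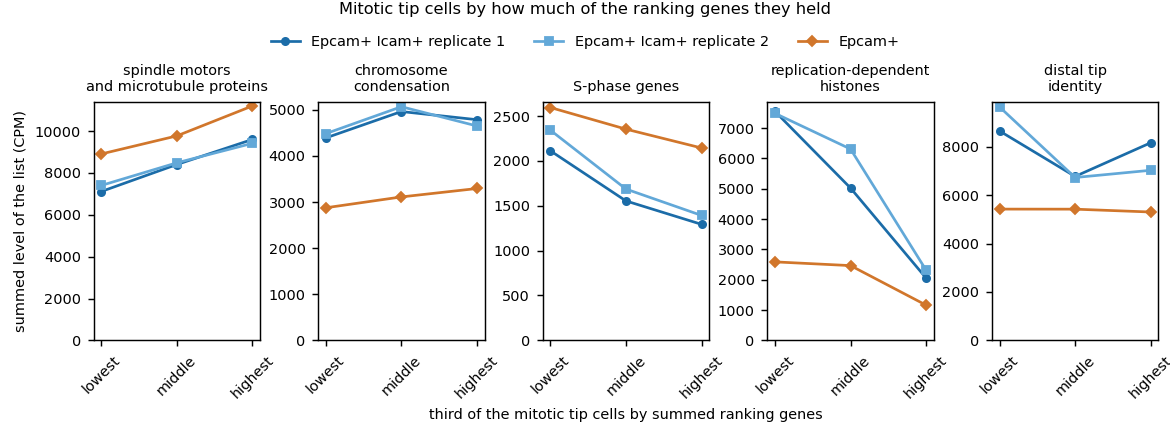
Summed CPM of 5 gene lists in the members of each library, split into 3 groups by the share of the ranking genes, lowest to highest. Histone transcripts stand at 2051, 2311 and 1160 CPM in the highest group of the 3 libraries, while spindle transcripts stand at 9604, 9418 and 11206 CPM there. In Epcam+ the histone sum over all members is mostly Hist1h2ap.

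Among regulators of the cycle's first gap phase, 1 of 17 was higher in mitotic tip cells (5.88%) and 2 lower (11.8%). Over all genes tested the shares were 4.44% and 3.47%, so the higher count is no result about this list. Cyclin D2 (Ccnd2), which starts a cycle in response to growth signals, fell to 222.3, 220.3 and 151.5 CPM in mitotic tip cells, against 326.8, 285.4 and 276.1 CPM in other tip cells (log2 -0.62 ± 0.07, adjusted p = 1.6e-06, edgeR). Cyclin D1 (Ccnd1) differed by 0.03 and was not called. The inhibitor p57 (Cdkn1c) was lower in all 3 libraries (-0.29 ± 0.05, adjusted p = 0.0012, edgeR), and this call was lost at the 90th percentile (-0.15, adjusted p = 0.12). Cdkn2d, the p19 inhibitor, was the higher one (0.55, adjusted p = 0.016).

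Genes of tip identity differed little between the classes, and not all were common in them, as the Etv4 shares above show. Of 23 genes in the distal tip list 22 passed the filter on low counts. Of these 4 were higher in mitotic tip cells (18.2%, against 4.44% of all genes tested) and 0 were lower (against 3.47%). The median log2 difference was 0.10. The 4 were Foxp2, Etv5, Irx1 and Nkx2-1. Foxp2, a forkhead factor of distal lung epithelium, had 496.8, 465.1 and 269.0 CPM in mitotic tip cells, against 355.6, 345.1 and 188.7 CPM in other tip cells (0.46 ± 0.05, adjusted p = 7.8e-07, edgeR). It was higher in 3 of 3 libraries. Etv5, a transcription factor induced by FGF10 at the tip, had 90.9, 92.97 and 228.6 CPM in mitotic tip cells, against 72.5, 80.2 and 177.1 CPM in other tip cells (0.30 ± 0.06, adjusted p = 0.0018). Etv5 was higher in each library, but its call was lost with cells thinned to 5000 UMIs (0.24, adjusted p = 0.29) and at the 90th percentile (0.23, adjusted p = 0.068). Irx1 (0.21, adjusted p = 0.028) and Nkx2-1 (0.17, adjusted p = 0.038) lost their calls in 10 settings each, among them DESeq2 and thinning.

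The other tip genes named here did not pass the test. Sftpc, the surfactant protein that tip progenitors express early, had 5647, 5826 and 2239 CPM in mitotic tip cells, against 4517, 4968 and 2405 CPM in other tip cells. It was higher in both Epcam+ Icam+ libraries and lower in Epcam+ (0.14 ± 0.06, adjusted p = 0.18). The gene was called higher without the Epcam+ library (0.26), and stood at -0.13 when cells were ranked by the other mitosis genes. Id2, an inhibitor of differentiation that marks the tip, had 196.5, 178.0 and 590.5 CPM in mitotic tip cells, against 180.9, 178.4 and 556.9 CPM in other tip cells (0.06, adjusted p = 0.58). Its level set the libraries apart, not the classes. Icam1 had 184.2, 201.4 and 139.8 CPM in mitotic tip cells, against 191.9, 184.8 and 156.8 CPM in other tip cells (-0.05 ± 0.06, adjusted p = 0.67).

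The signalling lists can be read against the 4.44% of all genes called higher and the 3.47% called lower. Of 15 genes of FGF and ERK response 1 was higher and 1 lower (6.67% each), so few calls here are no result about signalling genes. Of 10 Wnt targets and 9 BMP response genes 0 were called by edgeR or DESeq2, with 1 and 0 genes at an unadjusted p under 0.05. The MYC and ribosome biogenesis list had 0 of 23 genes higher and 3 lower, among them Myc itself at 19.0, 14.4 and 7.33 CPM in mitotic tip cells, against 25.8, 20.4 and 10.7 CPM in other tip cells. That call (-0.51, adjusted p = 0.017) was lost in several settings, among them without Epcam+ Icam+ replicate 1 (adjusted p = 0.051), without replicate 2 (adjusted p = 0.10) and under DESeq2 (adjusted p = 0.39). Egr1, an immediate early gene that dissociation can induce, was lower in each library, at 89.4, 90.1 and 26.3 CPM in mitotic tip cells, against 138.7, 131.6 and 35.9 CPM in other tip cells (-0.57, adjusted p = 6.2e-06). Of 17 immediate early and stress genes 3 were lower and 0 higher. Of 12 targets of p53 0 were called by edgeR or DESeq2, with 2 at an unadjusted p under 0.05.

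The orientation of the spindle helps to set where daughter cells come to lie in an epithelium, so genes of spindle orientation and cortical polarity were counted apart. Of 13 tested genes 2 were higher (15.4%, against 4.44% of all genes tested) and 0 lower (against 3.47%) in mitotic tip cells (median 0.04). Gpsm2, the adaptor LGN that links the cell cortex to the spindle, had 21.5, 19.7 and 29.6 CPM in mitotic tip cells, against 10.9, 9.58 and 13.2 CPM in other tip cells. Nde1, a dynein partner, had 79.5, 66.5 and 89.96 CPM in mitotic tip cells, against 29.2, 36.1 and 44.5 CPM in other tip cells. Both were about equally changed (1.08 each) and are themselves cell cycle genes. The polarity genes Pard3 (0.11), Prkci (-0.23) and Llgl1 (-0.22) and the dynein heavy chain Dync1h1 (-0.07) were not called.

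Markers of other cell types also differed between the classes. Scgb3a2, a secretoglobin of airway cells, had 1.84, 0.563 and 4.45 CPM in mitotic tip cells, against 74.2, 41.0 and 23.9 CPM in other tip cells, the lowest fitted value among the genes named by rule (-3.83 ± 0.29). Of the 4 airway genes tested, 2 were lower. The globins Hba-a1 and Hbb-bs were lower by 4.41 and 3.66, with 1 erythroid-marker barcode in other tip cells of Epcam+ Icam+ replicate 2 and 2 in those of Epcam+. The erythroid list summed to 2.75, 7.01 and 43.2 CPM in mitotic tip cells and 3.95, 452.5 and 435.5 CPM in other tip cells. Cma1, a mast cell protease, was listed at 0 in mitotic tip cells of both Epcam+ Icam+ libraries and had 190.3 CPM in Epcam+. Leaving out barcodes with 10 or more UMIs of any other-lineage list left the 8 mitosis lists and the S-phase list nearly as they were (30 of 34 S-phase genes lower).

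The sorts were compared within mitotic tip cells, in 2 Epcam+ Icam+ libraries against 1 Epcam+ library. Of 10878 genes tested 3398 (31.2%) were higher in Epcam+ Icam+ and 3361 (30.9%) lower, and with a log2 difference of at least 1 in size 1984 (18.2%) and 1134 (10.4%). The libraries also differed in the software version in their file headers and in the gene table they were counted on, so sort, library and counting cannot be told apart here. The 6 named higher genes show this. Rnasek, a ribonuclease gene, had 78.3 and 76.9 CPM in Epcam+ Icam+ and 0.144 CPM in Epcam+, and 5 of these 6 genes share exons on the same strand with a gene that only one kind of table lists. That was true of 2 of the 6 named lower genes and of 2.44% of the genes that passed the filter. The other higher genes were Atp6v0c, Fdx2, Mrpl53, B3gnt2 and Adnp, and the lower ones Cma1, Amd2, Ifitm1, Ptp4a1, Chtf8 and Usp50. Without barcodes carrying other-lineage transcripts Amd2 (-8.61), Ptp4a1 (-5.14), Chtf8 (-4.63) and Usp50 (-4.35) were still lower. Cma1 is a mast cell gene, and 1 Epcam+ barcode held 1498 of the 1826 mast cell and basophil marker UMIs there. Ifitm1 lost its difference between the sorts in the mitotic difference without such barcodes (-8.64 to -0.03). Neither is read as a trait of tip cells.

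Values of cell cycle and tip genes are given with the same limit: they compare these libraries, with 1 residual degree of freedom, and are no measure of the sort alone. Icam1 had 184.2 and 201.4 CPM in Epcam+ Icam+ cells and 139.8 CPM in Epcam+ cells (0.35 ± 0.09, adjusted p = 9.6e-04, edgeR). Etv5 had 90.9 and 92.97 CPM in Epcam+ Icam+ cells and 228.6 CPM in Epcam+ cells (-1.43 ± 0.09), and Id2 was lower by the same pattern (-1.78 ± 0.08), whereas Sftpc was higher (1.24 ± 0.07). Of 22 distal tip genes 5 were higher and 14 lower in Epcam+ Icam+, and of 12 alveolar type 1 genes outside the gate 9 were higher and 2 lower (median 1.29). The 75th percentile above which cells were dropped for their type 1 share lay at 778.3 and 739.9 CPM in Epcam+ Icam+ and at 201.1 CPM in Epcam+, and its part in these counts was not tested. Of 20 histone genes 18 were higher and 1 lower (median 4.18). Hist1h1b, a linker histone, had 1049 and 1273 CPM in Epcam+ Icam+ cells and 35.9 CPM in Epcam+ cells, whereas Hist1h2ap had 713.3 and 980.4 CPM in Epcam+ Icam+ cells and 1818 CPM in Epcam+ cells. In other tip cells Hist1h1b had 1176 and 1329 CPM in Epcam+ Icam+ and 37.0 CPM in Epcam+, and the mitotic difference did not pass the test between the sorts (-0.09 ± 0.12, adjusted p = 0.95).

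A test that cancels such library offsets asks whether the difference between mitotic and other tip cells was itself different between the sorts. Of 12498 genes 69 (0.552%) had a larger difference in Epcam+ Icam+ and 47 (0.376%) a smaller one. Without barcodes carrying other-lineage transcripts the counts were 25 and 4, all of which were also called with them. Among the 25 were mitotic genes, such as Cenpf (0.69 ± 0.10), Cdk1 (0.58 ± 0.09), Ccnb2 (0.67), Cenpa (0.66) and Tubb4b (0.62). The classes were split on mitotic transcripts at each library's own threshold. Values of cell cycle genes therefore describe that split here too, and support nothing about the sorts. The counts per list are from the fit with all barcodes. There 5 of 22 kinetochore genes, 5 of 23 spindle genes, 4 of 12 condensation genes and 5 of 17 immediate early and stress genes had a larger difference in Epcam+ Icam+. In each of these lists 0 had a smaller one. These counts include calls that were lost without the other-lineage barcodes. For Cdk1 the log2 difference was 1.70 and 1.62 in Epcam+ Icam+ and 1.05 in Epcam+. As given above, other tip cells of the Epcam+ library held more ranking transcripts, at a median of 243.9 CPM, and its threshold was higher; the part of this in the result was not tested. The test rests on 1 residual degree of freedom.

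Mitotic and other tip cells were then set beside airway cells, the Sox2-positive, Sox9-negative epithelium of the same libraries. Airway cells were split at the 75th percentile of the airway cells of each library. Median shares of the ranking genes were 1255, 527 and 1337 CPM in mitotic airway cells, against 1600, 1521 and 1598 CPM in mitotic tip cells. In replicate 2 the airway median lay below the tip threshold of 729.4 CPM. The part of this in the comparisons of tip and airway was not tested. There were 29, 30 and 52 mitotic airway cells and 88, 90 and 154 other airway cells. Distal tip genes summed to 7847, 7944 and 5384 CPM in mitotic tip cells and to 1579, 1518 and 2595 CPM in mitotic airway cells. Sox2 and Sox9 had defined the classes, so this gap was partly set by the rule and is no check of tip identity. Spindle genes came to 8452, 8334 and 9921 CPM in mitotic tip cells and 8733, 6587 and 9895 CPM in mitotic airway cells. In cells that were not mitotic they were at 4131, 4396 and 7081 CPM in tip and 2582, 2037 and 4964 CPM in airway. Spindle levels of mitotic cells stood close in replicate 1 and Epcam+, and the other cells of the tip held more than those of the airway in each library.

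**Figure D5:**
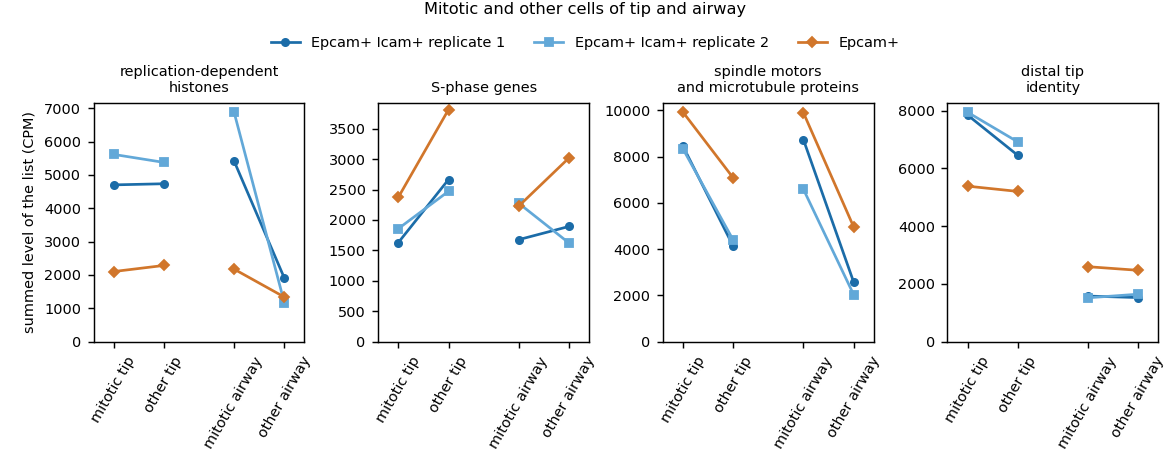
Summed CPM of 4 gene lists in mitotic tip, other tip, mitotic airway and other airway cells of the 3 libraries. Histone transcripts stand at 4702, 5617 and 2103 CPM in mitotic tip cells and at 5413, 6875 and 2174 CPM in mitotic airway cells, against 1906, 1169 and 1337 CPM in other airway cells. In Epcam+ these histone sums are mostly Hist1h2ap.

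The difference between mitotic and other cells was itself tested between tip and airway. Of 11434 genes 5 (0.0437%) had a larger difference in tip cells and 49 (0.429%) a smaller one. Foxp2 was among the 5 (0.61 ± 0.13, adjusted p = 0.038, edgeR): its airway levels were 83.2, 102.3 and 132.8 CPM in mitotic cells, against 125.3, 113.7 and 125.5 CPM in other cells, beside the rise in tip cells given above. Lpp, a focal adhesion protein (0.85, adjusted p = 0.041), and Igfbp5, which binds insulin-like growth factors (0.60, adjusted p = 0.019), met it through a lower level in mitotic airway cells of all 3 libraries. All 3 calls were lost without Epcam+ Icam+ replicate 1 or replicate 2.

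Histone genes made up 16 of the 49 smaller differences, of 20 tested (median -1.81). Hist1h2ab had 140.9, 158.3 and 6.32 CPM in mitotic tip cells, against 138.5, 169.5 and 5.00 CPM in other tip cells. In the airway it had 148.4, 199.8 and 4.58 CPM in mitotic cells, against 28.6, 24.8 and 3.30 CPM in other cells (difference of differences -2.58 ± 0.23, adjusted p = 9.2e-06, edgeR). In both Epcam+ Icam+ libraries mitotic cells of tip and airway stood close for it, and the other cells of the airway were lower. S-phase genes summed to 2664, 2471 and 3813 CPM in other tip cells and 1893, 1621 and 3020 CPM in other airway cells. Of 20 histone genes 9 were called without replicate 1, 7 without replicate 2 and 19 without Epcam+. The whole count of smaller differences was 16, 11 and 123 in those fits, and that of larger ones 6, 2 and 19. Kinetochore, spindle and condensation lists had 3 genes each with a smaller difference in the tip and 0 with a larger one. Without replicate 1, replicate 2 and Epcam+ in turn, the smaller differences numbered 1, 0 and 12 for kinetochore, 1, 0 and 9 for spindle and 0, 0 and 9 for condensation genes. Mki67, the proliferation marker, had 312.6, 295.2 and 89.5 CPM in mitotic tip cells, against 159.8, 173.4 and 50.5 CPM in other tip cells, and 262.6, 289.5 and 87.7 CPM in mitotic airway cells, against 76.98, 49.6 and 44.3 CPM in other airway cells (-0.92 ± 0.20, adjusted p = 0.048).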

How the data were processed

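Lung cells were sorted and put through droplet 3′ RNA sequencing (10x Chromium), and the authors deposited raw UMI counts per gene and barcode. Cell Ranger 2.1.1 and mm10 stand in the submitters' processing notes, whereas the file headers give Cell Ranger 5.0.1 for both Epcam+ Icam+ libraries and 3.0.2 for Epcam+. Their tables list 32285, 32285 and 31053 genes, of which 30406 are shared by ID and were used. No other filter on barcodes is given in the sources used here. The members and lists were chosen with earlier results of these data known.

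From the deposited counts, barcodes were classed by the rule in the report (Python 3.11.15), summed per class and library, and tested with edgeR 4.0.16 (R 4.3.3): TMM factors, the tool's default filter on low counts, a quasi-likelihood test and Benjamini-Hochberg adjustment over all genes except those of the rule. The library was a block, since both classes come from it. An automatic doublet threshold marked 3, 11 and 0 barcodes, too few to work, so an alternative left out the 72, 59 and 60 barcodes with the highest doublet scores, of which 1, 5 and 2 were members. Genes named are, by rule, the 12 (first comparison) or 6 (others) with the largest change each way among called genes with a mean of at least 20 CPM, in the first comparison with 1 direction in every library, without gene models, mitochondrial, ribosomal protein and globin genes, plus the extremes of each list and fixed genes; further list members are shown as values and were chosen after their values were seen. Macrophages are barcodes that passed the depth and mitochondrial filters with 10 or more C1q UMIs and fewer than 3 Epcam UMIs. Alternatives included DESeq2 1.42.0, other filters and thresholds, thinning to 5000 UMIs and leaving out each library. The fits were tested on simulated data. Promoters and gene positions are from RefSeq and GENCODE tables of the same build.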

Additional observations from a re-analysis of the deposited data

Results flagged for a closer look

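The 12 genes below were singled out because their difference between mitotic and other tip cells was tested to differ between the Epcam+ Icam+ and Epcam+ sorts, each at an adjusted p under 0.05 by edgeR with 1 residual degree of freedom. The larger differences in Epcam+ Icam+, as log2 differences of differences, were 1.41 for Hist1h1c, 1.27 for Fbln5, 0.98 for Arhgap31, 0.98 for Gas2l3, 0.91 for Fam111a and 0.77 for Slc24a5. The smaller ones were -8.64 for Ifitm1, -3.90 for Srgn, -3.18 for Scgb3a2, -1.26 for Lgals3, -0.77 for Rgcc and -0.75 for Fam120a. Without barcodes that hold 10 or more UMIs of another lineage, 3 of the 12 kept their call: Hist1h1c (1.73), Scgb3a2 (-3.17) and Rgcc (-0.93). Of those that lost it, Gas2l3 (1.00), Fam111a (1.02), Slc24a5 (0.73) and Fam120a (-0.75) stood about where they were. Fbln5 (0.88) and Arhgap31 (0.55) were smaller, and Ifitm1 was at -0.03, Srgn at 0.40 and Lgals3 at -0.13. Hist1h1c had 134.2 and 126.8 CPM in mitotic tip cells of the Epcam+ Icam+ libraries, against 110.9 and 133.7 CPM in other tip cells, and 8.48 CPM in mitotic tip cells of the Epcam+ library, against 21.4 CPM in its other tip cells.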

How the results depend on the processing

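With no replicate block (the library as block left out) the first comparison called 0 genes higher and 0 lower by edgeR, with 291 at an unadjusted p under 0.05, since the libraries then count as spread (biological coefficient of variation 38.8%, against 5.14% with it). For mitotic against other tip cells the counts higher and lower were 253 and 86 with DESeq2, 233 and 158 with cells thinned to 5000 UMIs, and 307 and 116 without S-phase-high tip cells. The lower count was 647 with no filter on low counts and 200 without S-phase-high and other-lineage cells together. Leaving out 1 library gave 286 to 665 higher and 196 to 533 lower. Between the sorts within mitotic tip cells DESeq2 gave 1514 higher and 1393 lower and thinning 1445 and 1396; with a log2 difference of at least 1 DESeq2 gave 1203 and 617 and thinning 1065 and 621. For the difference between the sorts in that difference, the larger and smaller counts were 11 and 1 with DESeq2, 25 and 10 with thinning, 19 and 6 at the 90th percentile, 36 and 8 with at least 2 Sox9 UMIs, and 25 and 4 without other-lineage barcodes. The larger count was 45 without the highest doublet scores, and the smaller one 107 with ranking by other mitosis genes. Between tip and airway, the larger count was 36 with no filter and 3 with DESeq2, thinning or doublets out, and 1 with the other ranking; the smaller count was 179 with no filter, 30 with thinning, 89 at 10000 UMIs or more, 32 with doublets out and 98 without other-lineage barcodes. Leaving out 1 library gave 2 to 19 and 11 to 123 there.

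Srgn turned to 0.40 without other-lineage barcodes, and Lgals3 to 1.51 at the 90th percentile, 0.54 with the other ranking and 0.40 with at least 2 Sox9 UMIs; the cause was not tested. Named genes by setting kept their status in 587 cases of the first comparison and lost the call in 78. A called gene kept its status if it was called in the same direction. An uncalled gene kept it by staying uncalled, whatever its direction, as Sftpc did. In the tip and airway test these counts were 75 and 24, and in the difference between the sorts 57 and 48, with 4 reversed. No paired analysis was possible because the Epcam+ library carries no number shared with 2 others, for the sorts; leaving out a library there leaves no residual degrees of freedom. The 90th percentile was not run for airway cells, with under 20 cells in a profile. Alternatives that leave out other-lineage barcodes were chosen after seeing the data. Low levels, such as 0.614 CPM of Ung, rest on few UMIs, and 3 libraries limit every test.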
